A study of Mus musculus with 12 samples.

Results

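Cxcl1, Cxcl2 and Cxcl3 are the genes of 3 neutrophil-attracting CXC chemokines, and they were chosen by name from the 48795 genes in the count tables. The series measured RNA from bone marrow-derived macrophages (BMDMs), which were obtained by culturing marrow cells of mice with the growth factor M-CSF, for 8 to 10 days per the study's methods. WT cells (strain labelled C57BL/6) and Acod1-/- cells (strain labelled C57BL/6NJ-Acod1em1(IMPC)J/J) were compared, and the methods give C57BL/6NJ as the WT strain and male mice aged 7 to 11 weeks as donors. Acod1 encodes the mitochondrial enzyme that makes itaconate, so cells without it lack their own itaconate. Cells of each genotype received vehicle, particulate matter (PM, an urban dust standard) at 20 µg/cm² for 24 hours, or the cell-permeable derivative 4-octyl itaconate (OI) at 0.25 mM for 2 hours before the same PM exposure, with 2 libraries for each of the 6 groups. No group received OI without PM.

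Chemokines of this branch carry a glutamate-leucine-arginine (ELR) motif ahead of their CXC cysteines, bind the receptor CXCR2 and draw neutrophils out of the blood into inflamed tissue. Cxcl1 is also known as KC and Cxcl2 as MIP-2. Resting macrophages hold little of these mRNAs. Toll-like receptor ligands, tumour necrosis factor and interleukin 1 switch the genes on through the transcription factor NF-κB, and proteins that bind AU-rich stretches, such as tristetraprolin, shorten the life of the mRNAs.

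All 3 genes lie on the plus strand of chromosome 5 of GRCm38, in a cluster that also holds Cxcl5, Ppbp, Pf4 and Cxcl15. Cxcl3 (ENSMUSG00000029379.10) spans chr5:90786103-90789600, Cxcl1 (ENSMUSG00000029380.11) chr5:90891241-90893115 and Cxcl2 (ENSMUSG00000058427.10) chr5:90903871-90905938. All are annotated as protein coding, and no other gene has exons overlapping theirs. With reads of 50 bases, 61 of the 967 possible exonic 50-base words of Cxcl3 (6.31%) also occur in Cxcl2, where they make up 61 of 1859 words (3.28%), so reads from these stretches cannot be assigned to either gene by sequence. Cxcl1 shares none of its 904 words with another gene.

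The sequences just upstream of the genes are shown with their matches to a motif of NF-κB-type factors. Whether these matches bear on the response to PM was not tested. Each line gives the 120 bases before the first start annotated by GENCODE or RefSeq, 5′ to 3′ on the plus strand, with the sequence from RefSeq on GRCm38.p6 (all 3 genes matched). That start is the GENCODE one for Cxcl1 and Cxcl2 and the RefSeq one for Cxcl3. Capitals mark matches, on either strand, to a κB-type motif written as GGG and TTCC separated by any 3 bases.
Cxcl1, chr5:90891121-90891240: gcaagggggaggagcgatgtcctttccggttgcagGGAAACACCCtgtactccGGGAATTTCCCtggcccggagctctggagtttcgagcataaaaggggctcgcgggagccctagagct
Cxcl2, chr5:90903751-90903870: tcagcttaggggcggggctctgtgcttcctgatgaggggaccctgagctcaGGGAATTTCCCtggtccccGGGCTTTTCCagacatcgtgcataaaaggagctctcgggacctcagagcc
Cxcl3, chr5:90785981-90786100: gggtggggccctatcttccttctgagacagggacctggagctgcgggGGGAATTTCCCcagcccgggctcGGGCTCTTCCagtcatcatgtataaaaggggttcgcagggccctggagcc

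The run GGGAATTTCCC, which matches the motif on both strands at overlapping positions, stood in all 3 sequences. It began 67 bases before the first start in Cxcl1, 69 in Cxcl2 and 73 in Cxcl3, and 71, 97 and 73 bases before the RefSeq starts, so the spacing depends on the annotation used. It was present in 14 of 32851 RefSeq promoter windows of 300 bases (0.0426%), whereas any κB-type match was present in 5.56% of them. The run was chosen because all 3 members hold it, and they are counted among the 14, so its rarity is a description and no test. Each gene had 1 further κB-type match, which began 50 bases before the first start in Cxcl2 and Cxcl3 and 85 bases before it, on the other strand, in Cxcl1. From the RefSeq starts these distances were 78, 50 and 89 bases for Cxcl2, Cxcl3 and Cxcl1. A TATA box written as TATAAA, which 13.6% of windows held, was found in Cxcl3 alone, starting 30 bases before its RefSeq start. The search took this exact string only. The printed sequences of Cxcl1 and Cxcl2 hold cataaaagg where that of Cxcl3 holds tataaaagg, so a TATA-like element there is not excluded. Neither an AP-1 site (TGA and TCA around any base, in 7.81% of windows) nor the antioxidant response element that NRF2 binds (core TGACNNNGC, in 12.4%) was found on either strand in the windows of the members. These matches describe the letters of the windows and not binding.

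The libraries held between 33616577 and 36817898 counts on genes, and 11228 genes passed the filter on low counts, among them all 3 chemokines. Whether libraries of a group came from separate animals or cultures was not stated, so the p-values measure only the spread between these libraries. Acod1 had 6346 and 5908 reads in PM-treated WT cells and 3660 and 3271 in PM-treated cells labelled Acod1-/-. Its mean normalized level in the libraries labelled Acod1-/- was 0.571 times that of WT with vehicle and 0.574 times with PM, and counts per gene do not show which exons were read, so this gene does not check the genotype labels. The 7 macrophage markers all passed the filter and summed to between 13998 and 26966 CPM (counts scaled to the size of the library), led by Lyz2. Over both genotypes their sum was 13998 to 14431 CPM with vehicle, 22954 to 26966 with PM and 14310 to 16446.5 with OI+PM. Summed markers reached at most 6.27 CPM for fibroblasts, 4.06 for lymphocytes, 2.23 for mast cells and basophils and 0.555 for dendritic cells. The one fibroblast and stromal marker tested, Acta2, the smooth muscle actin, was a DEG that rose with PM like the chemokines, from 1.03 to 4.03 CPM in WT cells and from 0.688 to 3.52 in Acod1-/- cells (group means). Untested members of that list went both ways. With PM, Col1a1, Col1a2 and Col3a1 went from 0.970 to 0.603, 0.869 to 0.501 and 0.354 to 0.143 CPM in WT cells. In Acod1-/- cells they went from 0.922 to 0.883, 0.689 to 1.09 and 0.179 to 0.278. The part of these markers in the results was not tested. Summed neutrophil markers reached 476 CPM, and the highest levels in a library were 422 CPM for Mmp8, 60.5 for S100a8 and 38.8 for Csf3r. Of the others, S100a9 and Ngp had at most 3.31 and 2.56 CPM, and Ly6g, Mpo, Elane and Retnlg at most 0.191. The WT OI+PM libraries differed most from each other, with a chi-square per degree of freedom of 58.5 between their counts against 2.61 to 27.3 in the other groups.

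PM raised all 3 chemokines from low or near-absent levels, in both genotypes. Normalized CPM of Cxcl1, scaled between libraries, were 0.160 and 0.102 in vehicle-treated WT BMDMs (6 and 4 reads) and 8.77 and 8.82 after PM (307 and 306 reads). In Acod1-/- BMDMs they were 0.410 and 0.555 with vehicle (15 and 20 reads) and 22.8 and 25.3 with PM (777 and 878 reads). The lowest PM library thus exceeded the highest vehicle library in each genotype, and Cxcl1 was near its detection limit without PM.

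Among the 3 members Cxcl2 had the highest level at rest and after PM. It measured 3.42 and 4.86 CPM in vehicle-treated WT cells and 125 and 121 CPM after PM. In Acod1-/- cells the values were 5.14 and 4.83 CPM with vehicle and 133 and 124 CPM with PM. The vehicle libraries of the genotypes overlapped, as did the PM libraries.

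Cxcl3 was barely detected without PM, at 0.454 and 0.458 CPM in WT cells (17 and 18 reads) and 0.355 and 0.167 CPM in Acod1-/- cells (13 and 6 reads). After PM it reached 38.2 and 34.9 CPM in WT cells and 31.8 CPM in each Acod1-/- library. The PM libraries again lay far above the vehicle libraries.

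**Figure D1:**
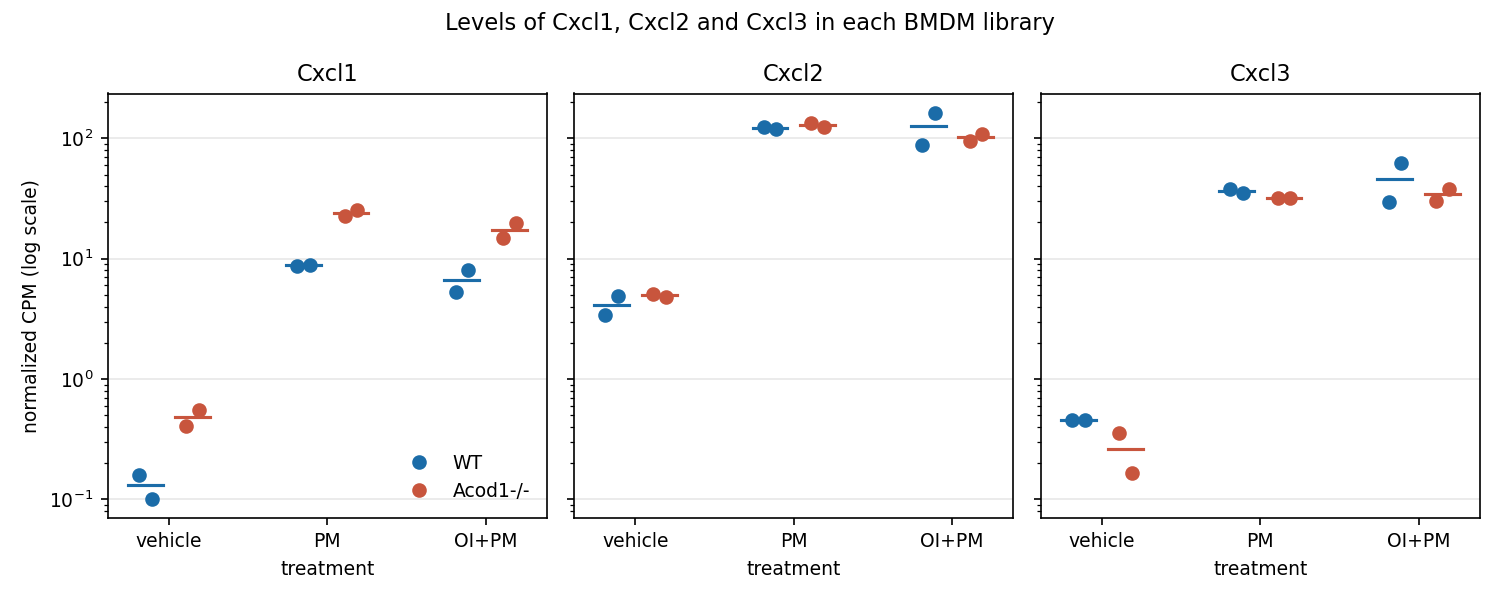
Normalized CPM (log scale) of Cxcl1, Cxcl2 and Cxcl3 in each library by treatment, with WT in blue and Acod1-/- in red. Points are libraries and short lines are the means of 2 libraries. PM and OI+PM libraries lie above all vehicle libraries for every gene, and for Cxcl1 the Acod1-/- points lie above the WT points in each treatment.

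In edgeR's quasi-likelihood test, the log2 fold change of PM over vehicle in WT cells was 6.04 for Cxcl1 (SE 0.360, adjusted p = 2.43e-06), 4.89 for Cxcl2 (SE 0.287, adjusted p = 2.21e-06) and 6.31 for Cxcl3 (SE 0.437, adjusted p = 6.43e-06). For Acod1-/- cells the values were 5.63 for Cxcl1 (SE 0.270, adjusted p = 4.66e-07), 4.69 for Cxcl2 (SE 0.283, adjusted p = 2.17e-06) and 6.91 for Cxcl3 (SE 0.483, adjusted p = 5.67e-06). As ratios of mean CPM these rises were 67.1-fold, 29.7-fold and 80.2-fold in WT cells and 49.8-fold, 25.8-fold and 122-fold in Acod1-/- cells, for Cxcl1, Cxcl2 and Cxcl3 in turn. The value of Cxcl3 in Acod1-/- cells rests on vehicle libraries of 13 and 6 reads. Leaving out 1 library in turn put its log2 fold change between 6.47 and 7.55. All 3 were differentially expressed genes (DEGs), that is, their adjusted p did not exceed 0.05 and their level changed by at least 1 on the log2 scale. Of all genes tested, 3.02% were DEGs that rose with PM in WT cells and 3.19% in Acod1-/- cells. Ranked by log2 fold change, Cxcl3, Cxcl1 and Cxcl2 stood at 4, 5 and 12 of 11228 genes in WT cells and at 3, 9 and 20 in Acod1-/- cells. In bulk RNA, more cells that make a transcript and more transcript per cell cannot be told apart. The summed neutrophil markers, of which 5 of 12 passed the filter, moved with treatment, from between 53.6 and 84.9 CPM with vehicle to between 310 and 373 with PM and between 415 and 476 with OI+PM. Mmp8 made up most of the sum with PM and OI+PM, and most of the 5 tested markers moved otherwise with OI. With PM, 2 of the 5 were DEGs that rose in WT cells and 3 in Acod1-/- cells, whereas with OI 1, S100a8, rose and 3, Csf3r, S100a9 and Ngp, fell in each genotype, beside 2.30% and 1.85% of all genes tested that rose and 8.49% and 7.98% that fell in WT and Acod1-/- cells. The 5 had a median log2 fold change of -1.18 in WT cells and -1.02 in Acod1-/- cells. Ly6g had no read in any vehicle or PM library. Of the 7 macrophage markers, 2, Fcgr1 and Mertk, were DEGs that fell with OI in each genotype, beside the 8.49% and 7.98% of all genes above. With PM 1, Lyz2, was a DEG that rose in Acod1-/- cells and none in WT cells, beside 3.19% and 3.02% of all genes tested. The part of all these markers in the results was not tested.

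The response to PM was not shown to differ between the genotypes. The difference in log2 fold change, Acod1-/- minus WT, was -0.41 for Cxcl1 (95% interval -1.85 to 1.03), -0.20 for Cxcl2 (-1.04 to 0.65) and 0.59 for Cxcl3 (-1.49 to 2.67), each with an adjusted p of 0.9998 in edgeR. The vehicle libraries held few reads of Cxcl1 and Cxcl3, and the intervals of these genes are the widest of the 3. Leaving out 1 library in turn put the difference between -0.75 and -0.12 for Cxcl1. For Cxcl2 it lay between -0.48 and 0.031, and for Cxcl3 between 0.155 and 1.23. No gene (0%) was a DEG for this difference in edgeR or in DESeq2, while 273 had an unadjusted p under 0.05 in edgeR.

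Per kilobase of transcript, which allows levels to be compared between genes, Cxcl2 was the highest of the 3 in every group. After PM, WT cells held 111 ± 2.78 CPM per kb of Cxcl2, 36.0 ± 2.29 of Cxcl3 and 9.23 ± 0.0369 of Cxcl1 (mean ± SD, n = 2). Acod1-/- cells kept this order, with 116 ± 5.50, 31.3 ± 0.0236 and 25.2 ± 1.78 CPM per kb. The mean levels of Cxcl3 and Cxcl1 after PM were closer to each other in Acod1-/- cells than in WT cells. The lengths used were those of the transcripts with a consensus coding sequence, 953 bases for Cxcl1, 1109 for Cxcl2 and 1016 for Cxcl3. Over all its annotated exons Cxcl2 has 1859 bases, while the lengths of Cxcl1 and Cxcl3 are the same by both measures. With 1859 bases the levels of Cxcl2 per kb would be lower. Ratios of the other members to it would be higher by the same factor in every library.

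OI pretreatment left the 3 chemokines high. Cxcl1 was 5.27 and 8.02 CPM in WT cells given OI before PM, below both libraries with PM alone. With OI and PM, Acod1-/- cells had 14.8 and 19.9 CPM, again below both PM libraries. The mean was 75.5% of that with PM alone in WT cells and 72.2% in Acod1-/- cells.

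Cxcl2 was 88.1 and 163 CPM in WT cells given OI and PM, on either side of the PM libraries. In Acod1-/- cells given OI and PM it was 95.6 and 109 CPM, below both PM libraries. Cxcl3 was 29.4 and 62.6 CPM in WT cells given OI and PM, again on either side of the PM libraries, and 30.1 and 38.2 CPM in Acod1-/- cells, likewise. The WT libraries given OI thus disagreed with each other on the direction for both genes.

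None of the 3 was a DEG for OI+PM versus PM in either genotype, against 10.8% of all genes tested in WT cells and 9.83% in Acod1-/- cells. In WT cells the log2 fold change in edgeR was -0.41 for Cxcl1 (95% interval -0.85 to 0.03, adjusted p = 0.118), 0.03 for Cxcl2 (-0.48 to 0.54, adjusted p = 0.925) and 0.33 for Cxcl3 (-0.28 to 0.94, adjusted p = 0.353). In Acod1-/- cells it was -0.47 for Cxcl1 (-0.86 to -0.08, adjusted p = 0.0630), -0.33 for Cxcl2 (-0.84 to 0.18, adjusted p = 0.309) and 0.10 for Cxcl3 (-0.51 to 0.72, adjusted p = 0.815). The intervals leave room for moderate changes in either direction for Cxcl2 and Cxcl3, and none of the 6 intervals reaches a log2 fold change of -1. DESeq2 called none of them either. In edgeR only Cxcl1 in Acod1-/- cells was under 0.05 before adjustment.

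The adjusted p of Cxcl1 for OI moved past 0.05 with the scaling and with some other settings. With a correction for gene length its log2 fold change for OI was -0.64 in WT cells (adjusted p = 0.00395 in edgeR) and -0.50 in Acod1-/- cells (adjusted p = 0.00565), still short of the fold threshold. With scaling to total counts, which shifted the median gene to a log2 fold change of -0.11 in WT cells, it was -0.55 in WT cells (adjusted p = 0.0355) and -0.54 in Acod1-/- cells (adjusted p = 0.0256). With a replicate block the adjusted p was 0.0418 in WT cells and 0.0174 in Acod1-/- cells, and without a filter beyond 1 count 0.0159 and 0.00216. With the compared groups alone it was 0.248 in WT cells and 0.00106 in Acod1-/- cells, where Cxcl2 had 0.000484 at a log2 fold change of -0.32. Without the filter the adjusted p was also 0.0167 for Cxcl2 in Acod1-/- cells (log2 fold change -0.31) and 0.0208 for Cxcl3 in WT cells (0.32). None of these values reached the fold threshold.

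The values for OI also moved with single libraries. For Cxcl1 leaving out each library in turn gave log2 fold changes between -0.74 (without WT OI+PM replicate 2) and -0.13 (without replicate 1) in WT cells, and between -0.695 (without Acod1-/- OI+PM replicate 2) and -0.27 (without replicate 1) in Acod1-/- cells, with adjusted p of 0.00935, 0.536, 0.0366 and 0.377 in turn in edgeR, each short of the fold threshold. In WT cells the direction for Cxcl2 and Cxcl3 rested on 1 library. Without WT OI+PM replicate 2 the log2 fold change for OI was -0.48 for Cxcl2 (adjusted p = 0.00883 in edgeR) and -0.32 for Cxcl3 (adjusted p = 0.0816), and without replicate 1 it was 0.41 (adjusted p = 0.0109) and 0.78 (adjusted p = 0.000347). The second of these libraries exceeded the first by 0.60, 0.89 and 1.09 on the log2 scale for Cxcl1, Cxcl2 and Cxcl3. This difference between the libraries correlated with exonic length across 11208 genes (Spearman's rho = -0.70, across genes of the same pair of libraries). Its median was 0.49 over the 587 genes of 800 to 1200 exonic bases. That range holds Cxcl1 (953) and Cxcl3 (1016) but not Cxcl2 (1859). The WT PM libraries had a similar trend (rho = -0.68, median 0.28 in that range). There the second library differed from the first by only 0.0081, -0.051 and -0.13 for Cxcl1, Cxcl2 and Cxcl3. The part of gene length in the difference was not tested. With a correction for gene length, which used exonic length, the log2 fold change for OI in WT cells was -0.11 for Cxcl2 and 0.06 for Cxcl3.

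**Figure D2:**
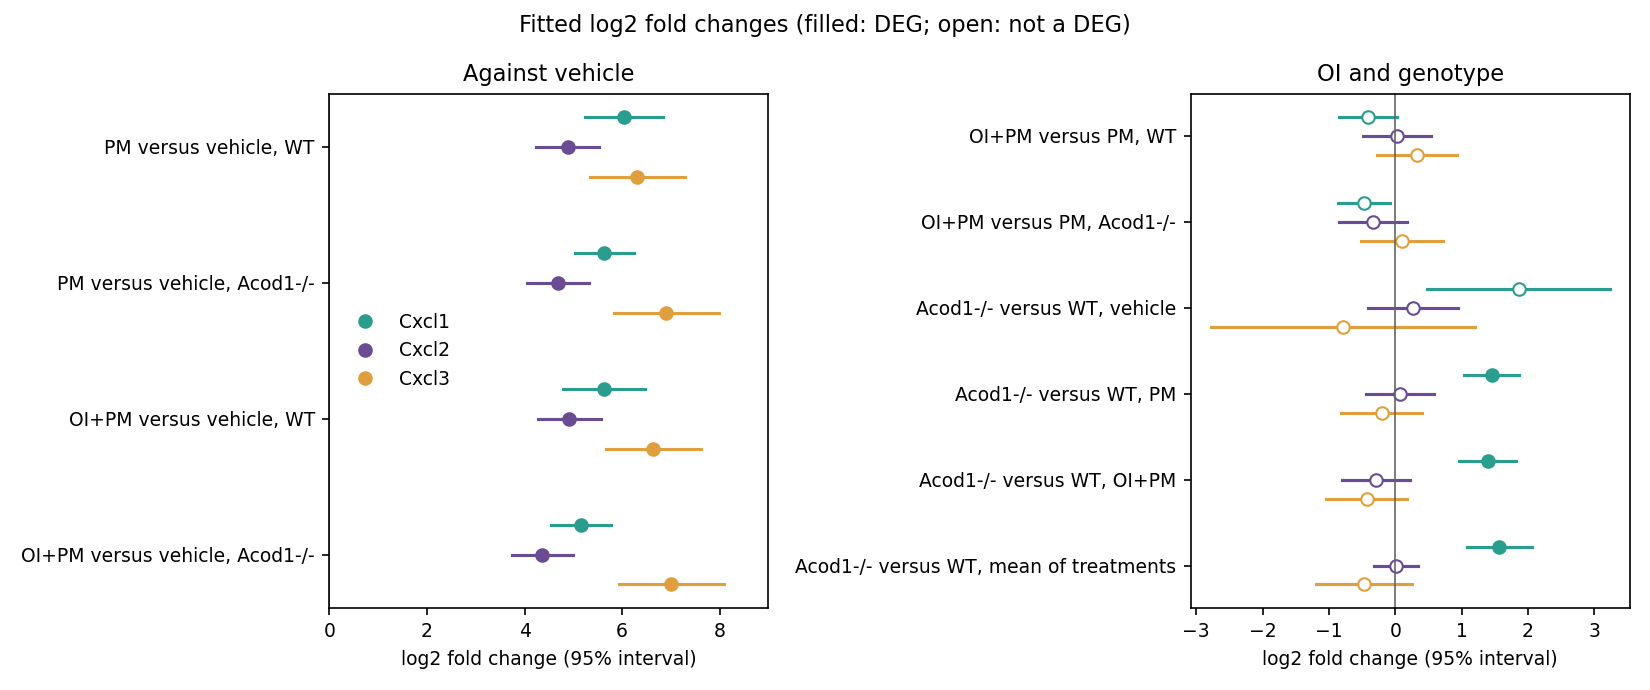
Log2 fold changes of Cxcl1, Cxcl2 and Cxcl3 with 95% intervals from the edgeR fit, with comparisons against vehicle on the left and OI and genotype comparisons on the right. Filled points are DEGs and open points are not. On the left the log2 fold changes lie between 4.36 and 7.01, and on the right only Cxcl1 is filled, in Acod1-/- versus WT with PM, with OI+PM and over the mean of the treatments.

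With OI and PM the chemokines thus remained far above vehicle. The log2 fold change of OI+PM over vehicle in WT cells was 5.63 for Cxcl1, 4.92 for Cxcl2 and 6.64 for Cxcl3, with edgeR adjusted p between 3.38e-07 and 9.45e-07. The values in Acod1-/- cells were 5.16, 4.36 and 7.01, with adjusted p between 1.85e-07 and 1.22e-06. All 3 were DEGs in both genotypes, beside 5.38% of all genes tested that rose in WT cells and 3.88% in Acod1-/- cells. These comparisons share the OI+PM libraries with those above. Leaving out 1 library in turn put the log2 fold change of Cxcl3 between 6.00 and 7.09 in WT cells. In Acod1-/- cells it lay between 6.57 and 7.65.

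With all libraries the effect of OI was not shown to differ between genotypes. The difference in log2 fold change, Acod1-/- minus WT, was -0.06 for Cxcl1 (95% interval -0.65 to 0.53), -0.36 for Cxcl2 (-1.08 to 0.36) and -0.22 for Cxcl3 (-1.09 to 0.64), with edgeR adjusted p of 0.964, 0.840 and 0.893. Without WT OI+PM replicate 1 it was -0.74 for Cxcl2 (adjusted p = 0.0387) and -0.67 for Cxcl3 (adjusted p = 0.0474), short of the fold threshold, and without replicate 2 it was 0.15 (adjusted p = 0.909) and 0.42 (adjusted p = 0.729). No gene tested (0%) was a DEG for this difference in edgeR, where 717 had an unadjusted p under 0.05, while DESeq2 called 5. The signs for Cxcl1 and Cxcl3 changed with the correction for gene length.

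Other genes that PM raised fell with OI in the same libraries. Among the 12 other CXC chemokines, 5 passed the filter, and 4 of these were DEGs that rose with PM in both genotypes, where 3.02% of all genes tested did so in WT cells and 3.19% in Acod1-/- cells. With OI, 2 of the 5 fell in each genotype, where 8.49% of all genes tested fell in WT cells and 7.98% in Acod1-/- cells. Cxcl10, a ligand of CXCR3 on T cells, was 9.60 and 15.5 CPM with PM and 0.599 and 0.778 CPM with OI+PM in WT cells. Its log2 fold change for OI was -4.19 in WT cells (SE 0.286, adjusted p = 1.48e-06 in edgeR) and -4.26 in Acod1-/- cells (SE 0.265, adjusted p = 8.02e-07). Cxcl16, a transmembrane chemokine that binds CXCR6, fell by 1.61 and 2.04 on the log2 scale.

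The neighbours of the members in the cluster gave other values. Ppbp, the platelet basic protein and also an ELR chemokine, had a log2 fold change for OI of -0.996 in WT cells (adjusted p = 4.67e-05 in edgeR) and -0.61 in Acod1-/- cells, just short of or below the fold threshold. Pf4, platelet factor 4, which lacks the ELR motif, had 0.43 and 0.18 and was not a DEG. Cxcl5, an ELR chemokine mostly made by epithelial cells, had between 0.173 and 0.353 CPM in PM libraries and no read in the vehicle libraries, and it did not pass the filter. Cxcl15 had no read in any library.

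Of the 9 cytokines listed as inducers of these chemokines, 4 passed the filter, and 3 of these, Tnf, Il1a and Il1b, were DEGs that rose with PM and fell with OI in both genotypes. The shares of all genes tested were 3.02% and 3.19% higher with PM and 8.49% and 7.98% lower with OI, in WT and Acod1-/- cells. The fourth, Osm, encoding oncostatin M, was not a DEG, with log2 fold changes for PM of 0.54 in WT cells and 0.05 in Acod1-/- cells and for OI of -0.27 and -0.39. Tnf, encoding tumour necrosis factor, rose by a log2 fold change of 2.53 with PM in WT cells and fell by 1.32 with OI. Il1b, encoding interleukin 1β, was 11.5 and 12.02 CPM with PM and 2.22 and 3.04 CPM with OI+PM in WT cells. Its log2 fold change for OI was -2.17 in WT cells and -3.45 in Acod1-/- cells, and that of Il1a, encoding interleukin 1α, was -2.01 and -2.89. Il6, encoding interleukin 6, did not pass the filter, with 33 reads over both PM libraries and 1 over both OI+PM libraries in WT cells, and 69 and 7 in Acod1-/- cells. Csf2, Csf3, Il17a and Il17f had at most 7 reads in any group and were not tested. The median over the 4 inducers was -1.67 in WT cells and -2.05 in Acod1-/- cells. Over Cxcl1 to Cxcl3 it was 0.03 and -0.33, and over all genes tested 0.02 and -0.00056.

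**Figure D3:**
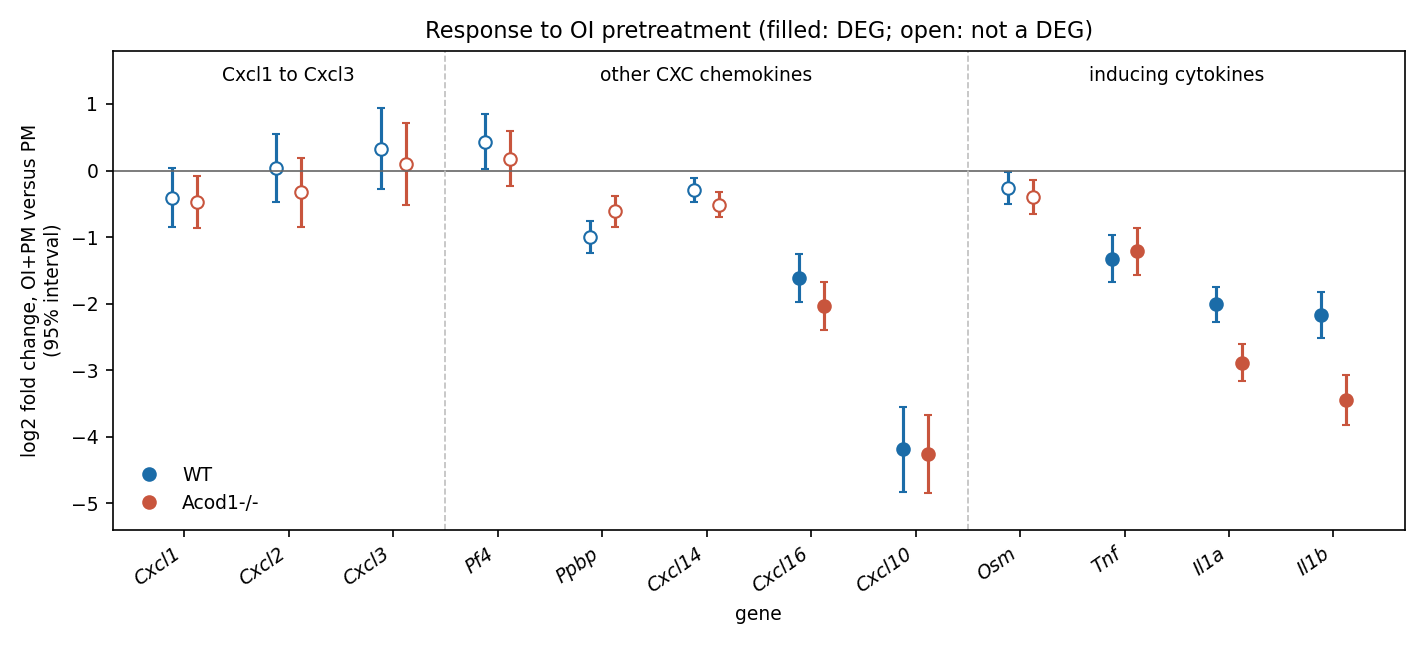
Log2 fold change of OI+PM versus PM with 95% intervals for Cxcl1 to Cxcl3, other CXC chemokines and inducing cytokines that passed the filter, in WT (blue) and Acod1-/- (red) cells. Filled points are DEGs. The chemokines Cxcl1 to Cxcl3 lie between -0.47 and 0.33, while Cxcl10, Cxcl16, Tnf, Il1a and Il1b lie below -1 in both genotypes.

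Of 12 NF-κB subunits and inhibitors, all tested, 6 were DEGs that rose with PM in each genotype, where 3.02% of all genes tested did so in WT cells and 3.19% in Acod1-/- cells. The other 6 were not DEGs, among them Rel, the c-Rel subunit, with 40.5 CPM with vehicle and 35.7 with PM in WT cells (group means). Those that rose included Nfkbia and Nfkbie, which encode inhibitors that hold NF-κB in the cytoplasm, with log2 fold changes of 1.96 and 2.05 in WT cells, and Relb, a subunit of the non-canonical dimer, with 1.70. Some calls near the fold threshold were lost under alternatives. In WT cells Bcl3 had 0.97 with the gene length offset, and Nfkb2 and Tnfaip3 had 0.96 and 0.95 with total count scaling. In Acod1-/- cells Tnfaip3 had 0.94 with total count scaling. Without WT PM replicate 1 Tnfaip3 had 0.96 in WT cells, and without Acod1-/- vehicle replicate 2 it had 0.98 in Acod1-/- cells. With OI, 1 of 12 was a DEG that fell in WT cells, beside 8.49% of all genes tested, and 3 of 12 in Acod1-/- cells, beside 7.98%. The median log2 fold change of the list for OI was -0.55 in WT cells and -0.62 in Acod1-/- cells, against 0.02 and -0.00056 over all genes tested. Nfkbiz, an NF-κB cofactor of secondary response genes, fell in both, by 1.37 and 1.44 on the log2 scale. Bcl3 and Relb fell in Acod1-/- cells alone by this threshold. Relb had -1.04 there with all libraries, and -0.89 without Acod1-/- OI+PM replicate 1, short of the fold threshold. The difference in the effect of OI between the genotypes was not a DEG for any gene in edgeR, while DESeq2 called 5 genes of all tested.

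Of 11 regulators of AU-rich and chemokine mRNA decay, all tested, Zfp36l1 was the only DEG for PM or OI in either genotype. With PM, 1.13% of all genes tested were DEGs that fell in WT cells, and with OI 8.49% and 7.98% fell in WT and Acod1-/- cells. No regulator was a DEG that rose, where 3.02% and 3.19% of all genes tested rose with PM and 2.30% and 1.85% with OI. Short of the fold threshold, Zc3h12a, which encodes the RNase regnase-1, had a log2 fold change for PM of 0.57 in WT cells (adjusted p = 0.000635 in edgeR) and 0.61 in Acod1-/- cells (adjusted p = 0.000363), without overlap of the PM and vehicle libraries. Rc3h1 and Rc3h2, which encode the roquin proteins that also promote mRNA decay, had values of the other sign without overlap, -0.56 (adjusted p = 0.0419) and -0.51 (adjusted p = 0.0499) in WT cells and -0.47 (adjusted p = 0.0789) and -0.57 (adjusted p = 0.0322) in Acod1-/- cells. Arid5a, which encodes a protein that stabilizes inflammatory mRNAs, had -0.54 for OI in WT cells (adjusted p = 0.00648) and -0.83 in Acod1-/- cells (adjusted p = 0.000364). Zfp36, which encodes tristetraprolin, had a log2 fold change for PM of -0.31 in WT cells and -0.25 in Acod1-/- cells and for OI of 0.55 and -0.09, and it was not a DEG. Zfp36l1, a relative that also promotes decay of AU-rich mRNAs, fell with OI by 2.96 and 3.05 on the log2 scale. With PM it was a DEG that fell by 1.09 in WT cells, and it had -0.98 without WT PM replicate 2, short of the fold threshold. In Acod1-/- cells its mean was also lower with PM, at 28.9 CPM against 52.4 with vehicle, where it was not a DEG. Of the receptors, Cxcr1, Cxcr2 and the decoy Ackr1 did not pass the filter, and Cxcr2 had at most 0.509 CPM in any library.

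Cxcl1 was the only member called between genotypes, and it was higher in Acod1-/- cells. Its mean level in Acod1-/- cells was 2.73 times that in WT cells with PM and 2.61 times with OI+PM. The log2 fold change with PM was 1.45 (SE 0.183, 95% interval 1.04 to 1.86, adjusted p = 0.00334 in edgeR), and both Acod1-/- libraries exceeded both WT libraries. It was 1.39 with OI+PM (SE 0.191, adjusted p = 0.00409), again without overlap. Among all genes tested, 0.258% were DEGs higher in Acod1-/- cells with PM and 0.330% with OI+PM, and Cxcl1 ranked 14 and 34 by log2 fold change. Some neutrophil markers were higher in Acod1-/- cells and others lower. Mean S100a9 was 3.27 CPM against 1.71 in WT cells with PM and 1.03 against 0.446 with OI+PM, and mean Ngp 2.10 against 0.990 and 0.561 against 0.107. With vehicle the means were 1.32 against 1.01 for S100a9 and 1.09 against 0.787 for Ngp. Ltf, which did not pass the filter, had 0.771 against 0.576 with vehicle, 1.45 against 0.717 with PM and 0.409 against 0.0319 with OI+PM. Cxcr2, likewise not tested, had 0.304 against 0.402, 0.203 against 0.244 and 0.379 against 0.336. None of the 5 tested was a DEG between genotypes within a treatment. Over the mean of the treatments 1 was, Ngp (log2 fold change 1.28, adjusted p = 0.0262 in edgeR), beside 0.267% of all genes tested that were DEGs higher in Acod1-/- cells. The most abundant, Mmp8, was lower in Acod1-/- cells with vehicle (28.7 against 56.4 CPM) and PM (254 against 315) and higher with OI+PM (422 against 374). Mean S100a8 was 3.69 against 4.05 CPM with vehicle, 12.8 against 12.6 with PM and 32.1 against 44.6 with OI+PM. Mean Csf3r was 19.9 against 21.1 CPM with vehicle, 37.7 against 31.6 with PM and 18.6 against 13.9 with OI+PM. The macrophage marker Adgre1 was higher in Acod1-/- cells by 0.45 with vehicle, 0.53 with PM and 0.59 with OI+PM on the log2 scale, short of the fold threshold. The part of these markers in the result for Cxcl1 was not tested.

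The same direction was seen in vehicle-treated cells, where the reads were few. Cxcl1 had 35 reads in the 2 Acod1-/- libraries and 10 in the 2 WT libraries, a ratio of 3.70 at equal library totals (exact 95% interval 1.79 to 8.37, for counting error only). The log2 fold change was 1.86 with an adjusted p of 0.251 in edgeR, so Cxcl1 was not among the 0.481% of genes that were DEGs. DESeq2 gave an adjusted p of 0.0296, and edgeR on the vehicle libraries alone gave 0.00591.

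Over the mean of the treatments the log2 fold change of Cxcl1 was 1.57 (SE 0.219, adjusted p = 0.00152 in edgeR), where 0.267% of genes were DEGs higher in Acod1-/- cells. It was a DEG for PM and for the mean under every alternative tried. For OI+PM it was not one when edgeR was fitted to those 4 libraries alone (log2 fold change 1.41, adjusted p = 0.217), a fit in which 2 genes were called in all. Leaving out each library in turn gave between 1.38 and 1.52 with PM and between 1.11 and 1.72 with OI+PM, each still a DEG. The strain labels of the genotypes differ, and a strain difference cannot be told apart from the allele where the label holds.

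Cxcl2 and Cxcl3 were not called between genotypes in any treatment. The log2 fold change of Cxcl2, Acod1-/- over WT, was 0.26 with vehicle (95% interval -0.41 to 0.94), 0.07 with PM (-0.44 to 0.58) and -0.29 with OI+PM (-0.81 to 0.22), with edgeR adjusted p of 0.955, 0.919 and 0.385. For Cxcl3 it was -0.79 with vehicle (-2.78 to 1.20), -0.20 with PM (-0.81 to 0.41) and -0.43 with OI+PM (-1.04 to 0.18), with adjusted p of 0.9499, 0.799 and 0.297. Leaving out 1 library in turn gave values with vehicle between 0.036 and 0.54 for Cxcl2 and between -1.43 and -0.36 for Cxcl3. With PM they lay between 0.019 and 0.115 for Cxcl2 and between -0.27 and -0.14 for Cxcl3. With OI+PM they ran from -0.67 to 0.22 for Cxcl2 and from -0.87 to 0.22 for Cxcl3. Both turned positive there without WT OI+PM replicate 2.

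Ratios of the chemokines to each other within a library do not depend on a scaling that is the same for all genes of a library. The ratio of Cxcl1 to Cxcl2 per kb was 0.0817 and 0.0851 in PM-treated WT cells and 0.200 and 0.236 in PM-treated Acod1-/- cells. It was 0.0696 and 0.0572 with OI+PM in WT cells and 0.181 and 0.212 in Acod1-/- cells. With vehicle it was 0.0545 and 0.0244 in WT cells and 0.0928 and 0.134 in Acod1-/- cells. All 6 Acod1-/- libraries thus exceeded all 6 WT libraries in this ratio.

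The ratio of Cxcl3 to Cxcl2 differed between treatments and, with vehicle and with PM, between genotypes. Over both genotypes it was between 0.0376 and 0.145 with vehicle, between 0.261 and 0.334 with PM and between 0.344 and 0.419 with OI+PM. The treatments did not overlap in this ratio, and with OI it was higher than with PM alone in both genotypes, although neither gene was a DEG for OI. In contrast to the ratio of Cxcl1 to Cxcl2, it was lower in Acod1-/- cells, at 0.0755 and 0.0376 with vehicle against 0.145 and 0.103 in WT cells, and at 0.261 and 0.279 with PM against 0.334 and 0.316. With OI+PM the genotypes overlapped, at 0.344 and 0.381 in Acod1-/- cells and 0.364 and 0.419 in WT cells. A correction for gene length acts on each gene separately and brought the log2 fold changes for OI in WT cells closer together, to -0.11 for Cxcl2 and 0.06 for Cxcl3 from 0.03 and 0.33. These ratios were computed without it, after the values of the genes were seen and were not tested.

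**Figure D4:**
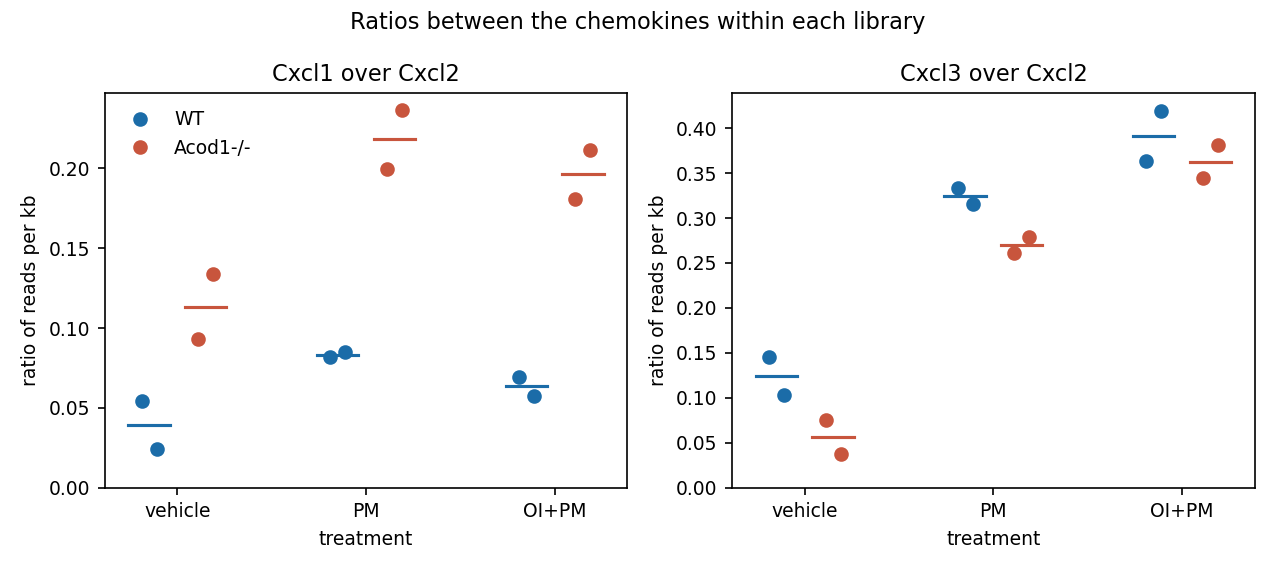
Ratio of reads per kb of Cxcl1 to Cxcl2 (left) and of Cxcl3 to Cxcl2 (right) in each library by treatment, with WT in blue and Acod1-/- in red. Points are libraries and short lines are means of 2 libraries. On the left the Acod1-/- points lie above all WT points, and on the right the points rise from vehicle to PM to OI+PM.

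Ordered by mean level, the groups of Cxcl1 ran from WT vehicle through Acod1-/- vehicle, WT OI+PM, WT PM and Acod1-/- OI+PM to Acod1-/- PM, and no neighbours in this order overlapped. For Cxcl2 the vehicle groups overlapped, and among the treated groups Acod1-/- OI+PM had the lowest mean and lay below both PM groups, which overlapped each other. The WT OI+PM libraries, on either side of the rest, overlapped all the other treated groups. For Cxcl3 the order ended with Acod1-/- PM, Acod1-/- OI+PM, WT PM and WT OI+PM, where each group overlapped its neighbour.

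Genes with profiles like those of the chemokines were sought by Pearson's r of log2 CPM over the 12 libraries, which share their treatments. Cxcl2 and Cxcl3 were each among the 5 genes most like the other (r = 0.990), whereas Cxcl1 had r = 0.957 with Cxcl2 and 0.929 with Cxcl3. Slpi, which encodes a secreted inhibitor of neutrophil proteases, was among the 5 most like both Cxcl2 (r = 0.991) and Cxcl3 (r = 0.993). Ptgs2, the inducible cyclooxygenase, was near Cxcl2 (r = 0.989), and Ptges, the prostaglandin E synthase downstream of it, near Cxcl3 (r = 0.992). The other genes near Cxcl2 were Il18bp and Mcoln2, and those near Cxcl3 were Bst1 and Acta2.

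Slpi had log2 fold changes for PM of 6.79 in WT cells and 7.498 in Acod1-/- cells, and for OI of -0.03 and 0.28. Its values for PM were above those of Cxcl2 (4.89 and 4.69) and nearer those of Cxcl3 (6.31 and 6.91). Ptgs2 rose by 4.79 and 4.08 with PM and had -0.38 and -0.85 with OI, short of the fold threshold. The genes most like Cxcl1 were Pygl, Trafd1, Keap1, F10 and Mcemp1 (r from 0.981 to 0.990), and their log2 fold changes for PM in WT cells, from 0.32 to 3.28, were below the 6.04 of Cxcl1. Pygl, the liver form of glycogen phosphorylase, had a log2 fold change for PM of 0.42 in WT cells and 0.12 between genotypes with PM, so the likeness in r is one of shape and not of size.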

How the data were processed

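The authors sequenced single-end reads of 50 bases, checked them with FastQC 0.11.5, mapped them to GRCm38 with STAR 2.5.3a and counted reads per gene with featureCounts. The submitters' processing notes also name Picard 2.9.0 and DESeq2. The deposited counts are whole reads assigned to each gene and were neither normalized nor filtered. The annotation release and the handling of strand and of reads mapping to several places are not given in the sources used here.

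Genes with CPM above 1.5 in at least 2 of 12 libraries were tested. All 12 libraries entered 1 quasi-likelihood model in edgeR 4.0.16 (R 4.3.3) with TMM scaling and 6 group means, and each comparison was a contrast between them. Benjamini-Hochberg adjustment covered all 11228 tested genes. SEs are those implied by the F statistic. The scripts were tested on simulated data. No pair of libraries agreed within sampling noise. The genes named were the 3 members, Acod1, genes of lists (chemokines, receptors, NF-κB, inducers, mRNA decay, cell type markers) that were DEGs or among the highest, and for each member the 5 genes with the highest r. The members and lists were chosen with earlier results of these data known. Alternatives were DESeq2 1.42.0, other scalings and filters, a replicate block, a correction for gene length, the compared groups alone, the adjusted p without a fold threshold and leaving out each library. Gene positions came from GENCODE vM21 and promoters from RefSeq.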

Additional observations from a re-analysis of the deposited data

How the results depend on the processing

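The rise of Cxcl1, Cxcl2 and Cxcl3 with PM and with OI+PM over vehicle kept its direction and its call in all 168 checks over the alternatives. Over all comparisons of the members, 344 of 357 checks with all libraries and 176 of 192 without 1 library kept both. Cxcl1 between genotypes with vehicle (log2 fold change 1.86) became a DEG in DESeq2 (1.88), without a filter beyond 1 count (1.86) and with the compared groups alone (1.85), and with OI+PM (1.39) it lost its call with the compared groups alone (1.41). Every sign of a member that changed was that of a value that was not a DEG. The DEGs among the other listed genes kept their direction in all checks, and their call in 579 of 600 with all libraries and 232 of 240 without 1. The effect of OI on Cxcl2 in WT cells (0.03) became -0.11 with total count scaling, -0.0030 with the replicate block, -0.11 with the gene length offset and -0.13 with the offset and the replicate block. The difference in the effect of OI between genotypes turned for Cxcl1 (-0.06) to 0.0075 with total count scaling, 0.13 with the gene length offset and 0.14 with the offset and the replicate block, and for Cxcl3 (-0.22) to 0.0082 and 0.023 with the latter pair. The cause was not tested.

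Leaving out 1 library gave ranges that crossed 0 for these values. For the effect of OI they were -0.48 to 0.41 (Cxcl2, WT), -0.32 to 0.78 (Cxcl3, WT) and -0.078 to 0.26 (Cxcl3, Acod1-/-). For Acod1-/- over WT with OI+PM they were -0.67 to 0.22 (Cxcl2) and -0.87 to 0.22 (Cxcl3), and for the mean of the treatments -0.11 to 0.18 (Cxcl2). For the difference between genotypes they were -0.34 to 0.27 (Cxcl1), -0.74 to 0.15 (Cxcl2) and -0.67 to 0.42 (Cxcl3) in the effect of OI and -0.48 to 0.031 (Cxcl2) in that of PM. A lone library is assumed to vary like the other groups.

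Counts of DEGs moved by over 1.5 times without a filter beyond 1 count, to 717 from 466 for PM in WT cells, to 106 from 54, 134 from 63 and 236 from 103 between genotypes with vehicle, PM and OI+PM, and to 192 from 67 for the mean of the treatments, where a filter of 10 counts gave 151. For the difference in the effect of OI, 15 genes were called without the filter, 6 with the gene length offset and 5 with the offset and the replicate block. The compared groups alone gave 2 for genotype with OI+PM. Without a fold threshold the counts were 2782 and 2684 for PM in WT and Acod1-/- cells, 4926 from 1211 and 3881 from 1104 for OI, 7350 from 1808 and 5547 from 1475 for OI+PM over vehicle, and 205, 269, 782 and 1760 between genotypes. Leaving out 1 library of a compared group gave 32 to 35 DEGs between genotypes with vehicle and 38 to 347 with OI+PM, and up to 44 for the difference in the effect of OI. Total count scaling changed the DEGs that rose and fell to 391 and 1644 from 604 and 1204 for OI+PM over vehicle in WT cells and to 291 and 173 from 339 and 127 for PM, and the gene length offset to 60 and 64 from 37 and 66 between genotypes with OI+PM.

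Same-numbered libraries did not deviate together throughout, since the correlation of their deviations between groups ran from -0.41 to 0.73, so the numbers were not treated as pairs. Within WT they did, with 0.73 between PM and OI+PM and 0.23 and 0.24 between vehicle and these groups. Within Acod1-/- the values were -0.060, -0.036 and -0.095. The replicate block used as an alternative was common to both genotypes, so a block for WT alone was not tried. The replicate block changed no call on the members and no count of DEGs by over 1.5 times, with 472 DEGs for PM in WT cells. Exchanging the Acod1-/- numbers, chosen after seeing the data, gave 475.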
